A study of Mus musculus with 12 samples.

Results

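The cytochrome P450 genes of mouse lung other than the best known targets of the aryl hydrocarbon receptor were followed across room air, cigarette smoke and Rora mutation. Genes were taken by name, as Cyp followed by a family number, a subfamily letter and a gene number in the annotation of the arrays, with Cyp1a1, Cyp1a2, Cyp1b1 and Cyp2f2 left out. The array held 67 such genes on 97 probes. A gene is described here if a probe of it stood well above background on 4 or more of 12 arrays, which left 40 genes, out of 19824 genes measured in all.

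Whole-lung RNA of 12 C57Bl/6 mice, 1 array each, fell into 3 groups of 4. Wild-type (WT) mice either breathed room air or were exposed to cigarette smoke, and mice with mutant Rora were exposed to smoke. Smoke was given on 5 days a week for 4 months, and every mouse is labelled male with an age of 12 weeks, which is shorter than the exposure. The labels do not say which Rora allele the mutants carried, and Rora mutants kept in room air were not analysed here. A difference between the smoke-exposed genotypes is therefore a difference under smoke, and its dependence on smoke cannot be told apart from a general effect of genotype.

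Cytochrome P450 enzymes are heme proteins of the endoplasmic reticulum and the mitochondrion that insert an oxygen atom into small lipophilic molecules, with electrons passed to them by the reductase Por or by ferredoxin. Some clear drugs and inhaled toxicants, and others make or break down bile acids, steroid hormones, vitamin D, retinoic acid and signalling fatty acids. In lung they are richest in club cells of the airway and in alveolar type 2 cells. RORα, the product of Rora, is a nuclear receptor that binds the DNA hexamer AGGTCA preceded by an AT-rich stretch, and in mouse liver it is reported to act on Cyp7b1, Cyp8b1 and genes of the Cyp2b and Cyp4a subfamilies.

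The arrays first had to be set against their labels. Rora itself lay at 1.08 to 1.16 in WT room air, 1.15 to 1.23 in WT smoke and -1.14 to -0.92 in mutants. Every level is a log2 ratio of a probe's signal to its array's 75th percentile, so levels of different genes are not set against each other. The mutant level was 2.20 ± 0.06 (SE) log2 units below WT smoke (adjusted p = 1.16e-09), which goes with the genotype labels. Sex-linked RNA did not go with the labels. Xist, the RNA of the inactive X chromosome of females, averaged 4.04 ± 0.07 in room-air mice (SD, n = 4) against -5.39 ± 2.08 in WT smoke and -4.61 ± 1.26 in mutants. The Y-linked Ddx3y lay at -7.67 ± 1.10, 0.46 ± 0.19 and 0.51 ± 0.16 in the same order. In every comparison with room air below, smoke and this difference in sex-linked RNA cannot be told apart, while both smoke groups were alike in it. Between 70.1% and 74.8% of an array's spots were well above background. In whole lung, fewer cells of a type and less RNA per cell cannot be told apart either.

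Detection is given by role. Drug-type families had 16 of 27 genes of the CYP2 family and 2 of 6 of the CYP3 family detected. Lipid-type groups had 8 of 11 CYP4 genes, which hydroxylate fatty acids, and 4 of 6 arachidonate epoxygenases. Genes of vitamin D and retinoid turnover had 4 of 5 detected, those of sterol and bile acid turnover 4 of 6, and those of steroid hormone synthesis 1 of 5. Of the 27 genes not described, 16 were well above background on 0 arrays and 11 on 1 to 3 arrays. The latter included Cyp7a1, the rate-limiting enzyme of bile acid synthesis, on 1 array and the aromatase Cyp19a1 on 2. Of the 40 genes, 39 were well above background on all 12 arrays. The exception was Cyp26a1, which clears retinoic acid and was so on 1 room-air, 4 WT smoke and 1 mutant array.

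As a group the 40 genes passed the test about as often as all genes on the array. In WT smoke against WT room air, 2 of 40 passed the test (5.0%), where 4.86% of all genes passed. Both were lower, where 2.55% of all genes passed lower and 2.31% higher. In mutant smoke against WT smoke, 1 gene was higher and 2 were lower (7.5% of 40), where 6.04% of all genes passed, 2.48% higher and 3.56% lower. In mutant smoke against WT room air, 2 were higher and 4 lower (15.0% of 40), where 16.7% of all genes passed, 6.67% higher and 10.0% lower. A pass is a limma adjusted p under 0.05 over all genes, and the 3 comparisons share arrays, so they are not independent of each other. At an unadjusted p under 0.05 the 3 comparisons held 6, 8 and 9 of the 40, beside 3633, 4196 and 6100 of all 19824 genes. The 6 include Cyp26a1, which was kept only through WT smoke and is described below without a test. Under the normexp background correction 1 of the 11 calls held, that of Cyp7b1 from room air to mutant smoke.

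**Figure D1:**
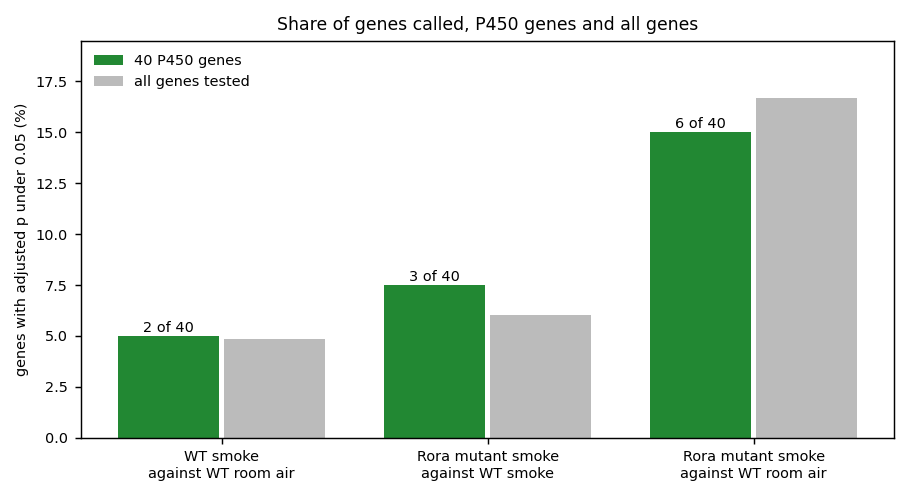
Percent of genes with an adjusted p under 0.05 in each comparison, for the 40 P450 genes (green, with the count above the bar) and for all 19824 genes tested (grey). The green bars stand at 5.0%, 7.5% and 15.0% beside grey bars at 4.86%, 6.04% and 16.7%.

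The sizes were small. Changes of the 40 genes ran from -0.41 to 0.47 in WT smoke against room air, with a median of -0.003 beside -0.01 over all genes. Between the genotypes under smoke they ran from -0.61 to 0.79, with a median of 0.01 beside 0.002. From room air to mutant smoke they ran from -0.61 to 0.98, with a median of -0.02 beside -0.006. In WT smoke against room air the 95% interval of the change lay within 1.5-fold in either direction for 28 of the 40 genes and within 2-fold for 39. The same counts were 34 and 36 between the genotypes, and 34 and 38 from room air to mutant smoke. For comparison, on the same arrays smoke-exposed WT mice exceeded room-air mice 11-fold in the excluded Cyp1a1 and 24.1-fold in Cyp1b1. Among the 40 the highest value of this comparison was 1.39-fold, that of Cyp2a4, which did not pass. Groups that did not overlap were counted too: 3 of 40 (7.5%) in WT smoke against room air where 12.9% of all genes did not overlap, 5 (12.5%) between the genotypes against 13.4%, and 7 (17.5%) from room air to mutant smoke against 21.0%.

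**Figure D2:**
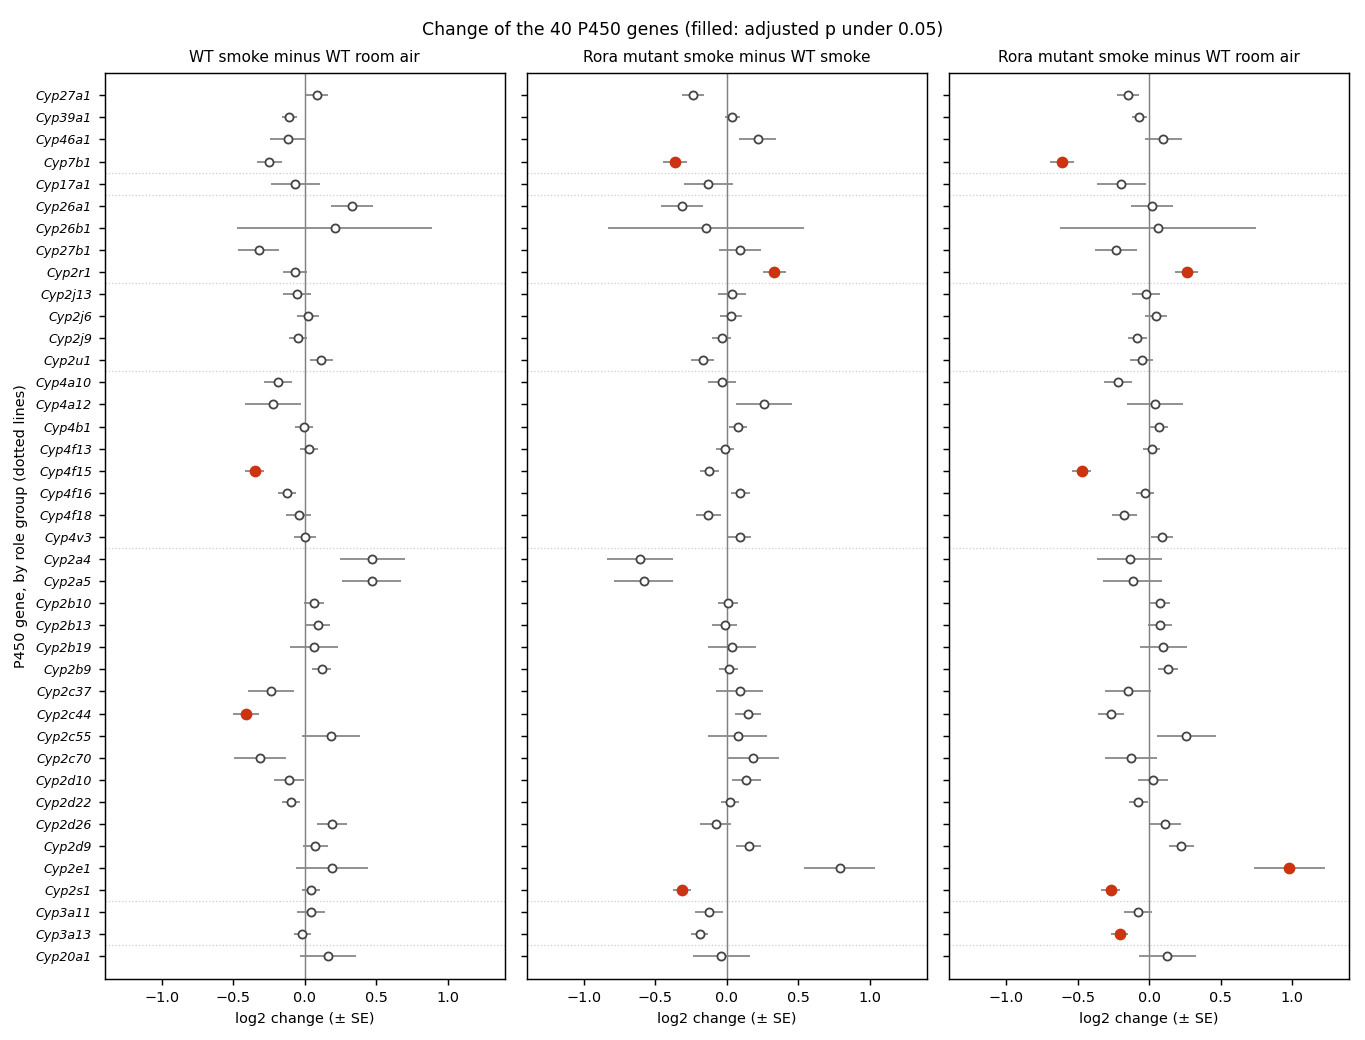
Log2 change with its standard error for each of the 40 P450 genes in the 3 comparisons, ordered by role group between the dotted lines (sterol and bile acid at the top, then steroid hormone, vitamin D and retinoid, epoxygenase, CYP4, CYP2, CYP3 and Cyp20a1). Filled red points have an adjusted p under 0.05: 2 in the left panel, 3 in the middle and 6 on the right, while most open points lie close to 0.

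Among the genes of sterol turnover, Cyp7b1 was the member that fell in the mutants. It encodes the oxysterol hydroxylase of the alternative bile acid pathway and also removes immune-active oxysterols. Its levels in WT room air replicates 1 to 4 were -0.04, 0.23, 0.43 and 0.23. In WT smoke they were -0.06, -0.09, 0.02 and -0.02, and in mutants -0.46, -0.31, -0.37 and -0.46. Every mutant array lay below every WT array, while the WT groups overlapped through room-air replicate 1. Mutants were 1.29-fold below WT smoke (-0.36 ± 0.09 SE, adjusted p = 0.0305) and 1.53-fold below room air (-0.61 ± 0.09, adjusted p = 0.000812). Within slides 1, 2 and 3 the mutant minus WT smoke difference was -0.40, -0.25 and -0.44. Fitted with slide as a block, the difference was -0.37 (adjusted p = 0.0357). The call between the genotypes ended when any of 7 of the 12 arrays was left out (every mutant and WT smoke array except mutant replicate 2), with changes from -0.39 to -0.32 over the 23 alternatives. The call against room air held in all 23. WT smoke was 0.25 ± 0.09 below room air without passing (adjusted p = 0.135), though it passed without room-air replicate 1 (adjusted p = 0.0254). Alveolar macrophage markers differed as well: 6 of 9 were higher and 0 lower in mutants than in WT smoke, where 6.04% of all genes passed. Their summed level, in multiples of the array's 75th percentile, was 119 to 183.5 in mutants. It was 89.39 to 103.6 in WT smoke and 88.13 to 95.97 in room air. The part of these markers in the Cyp7b1 result was not tested. The probe of Cyp7b1 lies on chromosome 3 at 18264437-18264496 (mouse build mm8).

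The other measured sterol genes did not pass in any comparison. Cyp27a1, the mitochondrial sterol hydroxylase, lay at -1.94 ± 0.03 (SD, n = 4) in room air, -1.86 ± 0.17 in WT smoke and -2.10 ± 0.08 in mutants, a genotype difference of -0.24 ± 0.08 (SE, adjusted p = 0.101). Cyp39a1, another oxysterol hydroxylase, had the narrowest spread within groups of all 40 genes and lay at 0.92 to 1.01 in room air, 0.81 to 0.90 in WT smoke and 0.78 to 0.97 in mutants; the WT groups did not overlap, but their difference did not pass (-0.11 ± 0.05, adjusted p = 0.310). Cyp46a1, the cholesterol hydroxylase of brain, lay between -4.57 and -4.03. Cyp17a1, which makes androgen precursors, was the 1 detected gene of steroid hormone synthesis and ranged from -2.72 to -1.99 with overlapping groups. Of its pathway, Cyp11a1 and Cyp11b2 were on the array and well above background on 0 arrays.

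In the vitamin D and retinoid group, Cyp2r1 was higher in the mutants. It is the enzyme of the first hydroxylation of vitamin D. Levels were -4.54, -4.63, -4.65 and -4.65 in room air, -4.83, -4.44, -4.66 and -4.81 in WT smoke, and -4.31, -4.34, -4.45 and -4.31 in mutants. The mutants lay above all room-air arrays, and WT smoke replicate 2 reached into the mutant range. Mutants were 1.26-fold above WT smoke (0.33 ± 0.08 SE, adjusted p = 0.0353) and 1.20-fold above room air (0.26 ± 0.08, adjusted p = 0.0452). Both calls were fragile: each ended in 13 of 23 alternatives, with slide as a block among them (adjusted p = 0.0620 and 0.0794). Within slides 1 to 3 the genotype difference was 0.52, 0.28 and 0.28. Cyp27b1, which makes the active vitamin D hormone, was 0.32 ± 0.15 lower in WT smoke than in room air without passing (adjusted p = 0.267), and its levels ran from -4.83 to -3.98.

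Of the retinoic acid hydroxylases, Cyp26b1 did not pass in any comparison, and Cyp26a1 is described without a test. Cyp26a1 was dim, with means of -6.53 ± 0.27 (SD, n = 4), -6.19 ± 0.21 and -6.51 ± 0.19 in room air, WT smoke and mutants, a WT smoke minus room air difference of 0.33 ± 0.15 (SE). It was kept only through WT smoke, the group where it was highest, so its differences are given as a description with no test. Cyp26b1 had the widest spread of the 40 genes. Its room-air replicates lay at -1.62, -0.86, 1.11 and 0.01, its WT smoke replicates at -0.93, 0.49, 0.82 and -0.90, and its mutants at 0.85, -0.94, -1.57 and 0.55. The groups overlapped widely, and the pooled within-group SD of 1.09 stood against a median of 0.13 over the 40 genes. The interval of its change in WT smoke against room air ran from -1.29 to 1.71, so changes of either sign within those bounds remain compatible with the data.

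By limma, 0 of the 4 detected genes grouped here as arachidonate epoxygenases, the Cyp2j genes and Cyp2u1, passed in any comparison, and 0 had an unadjusted p under 0.05. Cyp2c44, which is also an epoxygenase, is counted with the CYP2 family below and did pass. These enzymes turn arachidonic acid into epoxides that relax vessels and dampen inflammation. Cyp2j6 ranged from -0.70 to -0.41 and Cyp2j9 from 0.03 to 0.27 over all arrays. Cyp2j13 ranged from -3.30 to -2.83, and Cyp2u1, which acts on long-chain fatty acids, from -4.77 to -4.33. The largest of their 12 changes was that of Cyp2u1 between the genotypes (-0.17 ± 0.08 SE, adjusted p = 0.268). The intervals of the other genotype differences in this group stayed between -0.18 and 0.25.

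Of the 8 detected CYP4 genes, which hydroxylate the end of fatty acid and eicosanoid chains, Cyp4f15 was lower in both smoke groups than in room air. Its subfamily inactivates leukotrienes. Its levels were -0.13, -0.13, -0.21 and -0.16 in room air, -0.44, -0.53, -0.55 and -0.50 in WT smoke, and -0.52, -0.58, -0.84 and -0.58 in mutants. All 8 smoke-exposed mice lay below all 4 room-air mice, and the genotypes overlapped. WT smoke was 1.27-fold below room air (-0.35 ± 0.07 SE, adjusted p = 0.0131) and mutant smoke 1.39-fold below it (-0.47 ± 0.07, adjusted p = 0.000908). The genotypes differed by -0.12 ± 0.07 without passing (adjusted p = 0.331). Within slides 1 to 3 the WT smoke difference was -0.29, -0.39 and -0.34, and the block fit gave -0.34 (adjusted p = 0.0200). The call ended in 1 of 23 alternatives, the normexp background correction. Goblet cell markers fell in the same comparisons. All 8 tested were lower in WT smoke and in mutant smoke than in room air, where 4.86% and 16.7% of all genes passed. Their summed level was 15.31 to 43.9 in room air, 3.532 to 6.841 in WT smoke and 2.617 to 3.107 in mutants. Their part in the Cyp4f15 and Cyp2c44 falls was not tested. The Cyp4f15 probe is on chromosome 17 at 32442453-32442512 (mm8), between those of Cyp4f16 and Cyp4f13, which did not pass in any comparison.

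The other CYP4 genes did not pass in any comparison. Cyp4b1, which activates inhaled furans and is abundant in lung, ranged from 6.00 to 6.32 over the 12 arrays, and its WT smoke change was -0.01 ± 0.06 SE (interval -0.14 to 0.13). Cyp4f18, which hydroxylates leukotriene B4 in mouse neutrophils, was 0.17 ± 0.09 lower in mutant smoke than in room air without passing (adjusted p = 0.199). Cyp4v3 (0.75 to 1.11) and Cyp4f13 (0.60 to 0.85), both fatty acid hydroxylases, had overlapping groups throughout. Cyp4a10, a fatty acid hydroxylase of the PPARα programme, lay at -2.57 ± 0.10 (SD, n = 4) in room air, -2.76 ± 0.19 in WT smoke and -2.79 ± 0.13 in mutants.

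The 16 detected CYP2 genes, the main drug-metabolising family, held 3 that passed in at least 1 comparison: Cyp2c44, Cyp2s1 and Cyp2e1. In WT smoke against room air 1 of 16 passed, where 4.86% of all genes did, and between the genotypes 1 of 16, where 6.04% did. From room air to mutant smoke 1 was higher and 1 lower, where 16.7% of all genes passed. Cyp2c44, an epoxygenase of mouse kidney and liver listed as Cyp2c23 in RefSeq, had levels of -3.76, -3.78, -3.43 and -3.55 in room air. They were -4.06, -4.05, -4.10 and -3.95 in WT smoke and -3.87, -3.91, -3.73 and -4.07 in mutants. All WT smoke arrays lay below all room-air arrays, and the mutants overlapped both groups. The fall from room air to WT smoke was 1.33-fold (-0.41 ± 0.09 SE, adjusted p = 0.0254). Within slides it was -0.41, -0.22 and -0.67, and in the block fit it no longer passed (adjusted p = 0.0598). It ended in 8 of 23 alternatives, 5 of which left out a single array: room-air replicate 3 or 4, or WT smoke replicate 1, 2 or 3. Mutant smoke was 0.27 ± 0.09 below room air, which passed only without mutant replicate 3 (adjusted p = 0.0665 with it and 0.0387 without).

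Cyp2s1, a P450 of surface epithelia, was lower in the mutants. Its levels were 5.18, 5.09, 5.23 and 5.12 in room air, 5.35, 5.12, 5.17 and 5.16 in WT smoke, and 4.88, 5.00, 4.87 and 4.80 in mutants. The mutants lay below every WT array, and the difference between WT smoke and room air did not pass (0.05 ± 0.06 SE, interval -0.10 to 0.19). Mutants were 1.24-fold below WT smoke (-0.32 ± 0.06, adjusted p = 0.0180) and 1.21-fold below room air (-0.27 ± 0.06, adjusted p = 0.0158). Within slides 1 to 3 the genotype difference was -0.48, -0.14 and -0.34, and the block fit gave -0.32 (adjusted p = 0.0366). It ended in 3 of 23 alternatives, among them leaving out mutant replicate 4. Markers of airway epithelium were measured on the same arrays. Of 12 club cell markers, 0 were higher and 3 lower in mutants than in WT smoke, with a median change of -0.21. Of 10 ciliated cell markers 0 were higher and 1 lower, where 6.04% of all genes passed in this comparison. All 12 and all 10 changes were below 0 there, passed or not, beside 9786 of all 19824 genes. From room air to mutant smoke 7 of the 12 and 5 of the 10 were lower and 0 higher, where 16.7% of all genes passed. The summed club cell level, in the same multiples, was 1095 to 1219 in mutants and 1122 to 1472 in WT smoke, which overlapped. In room air it was 1297 to 1341. The summed ciliated level was 43.95 to 48.06, 48.18 to 62.29 and 53.89 to 56.78. The part of cell numbers in the Cyp2s1 result was not tested.

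Cyp2e1, the ethanol-oxidising P450, had the largest change of the 40 genes. Its levels were -1.44, -1.80, -1.91 and -2.00 in room air, -1.35, -2.34, -1.16 and -1.54 in WT smoke, and -0.68, -1.12, -1.09 and -0.34 in mutants. The mutants lay above all other arrays. They were 1.97-fold above room air (0.98 ± 0.25 SE, adjusted p = 0.0208) and 1.73-fold above WT smoke, where the test was not passed (0.79 ± 0.25, adjusted p = 0.0899). Within slides 1 to 3 the difference from room air was 1.04, 0.68 and 1.19, and the block fit gave 0.98 (adjusted p = 0.0257). The call ended without room-air replicate 3 or 4 or without mutant replicate 1 or 4. Fat cells are known to express Cyp2e1, and adipocyte markers were measured on the same arrays. Of 6 measured adipocyte markers, 2 were higher and 0 lower in mutants than in WT smoke (Retn and Cidec), where 6.04% of all genes passed. All 6 changes were above 0 there, with a median of 0.65. At an unadjusted limma p under 0.05 there were 5 of the 6, beside 4196 of all 19824 genes. Against room air 2 were higher and 0 lower in mutants (Cidec and Plin4), where 16.7% of all genes passed. In that comparison 5 changes were above 0 and 1 below, with a median of 0.59. Retn was 1.49 ± 0.36 and Cidec 0.50 ± 0.12 above WT smoke (adjusted p = 0.0332 and 0.0281). The summed adipocyte level was 22.28 to 25.61 in mutants, 10.21 to 26.79 in WT smoke and 17.43 to 26.05 in room air, and the groups overlapped. The lowest sum was on WT smoke replicate 2, which also had the lowest Cyp2e1. That array was also the lowest of the 12 in the summed cardiac muscle markers (65.37) and alveolar type 2 markers (982.9). The highest sums were on WT smoke replicate 1 (26.79) and room-air replicate 2 (26.05), whose Cyp2e1 levels of -1.35 and -1.80 lay below every mutant. Lep was not detected on enough arrays to be tested. The part of adipose tissue in the Cyp2e1 result was not tested. Of 9 liver markers, 1 was not on the array, 5 were well above background on 0 arrays and 2 were tested. Between the genotypes 0 of these 2 passed, where 6.04% of all genes passed, with 1 change above 0 and 1 below. The summed level of the 2 was 0.2083 to 0.3014 in mutants, 0.2126 to 0.2865 in WT smoke and 0.2208 to 0.2541 in room air. The part of liver RNA in the Cyp2e1 result was not tested.

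**Figure D3:**
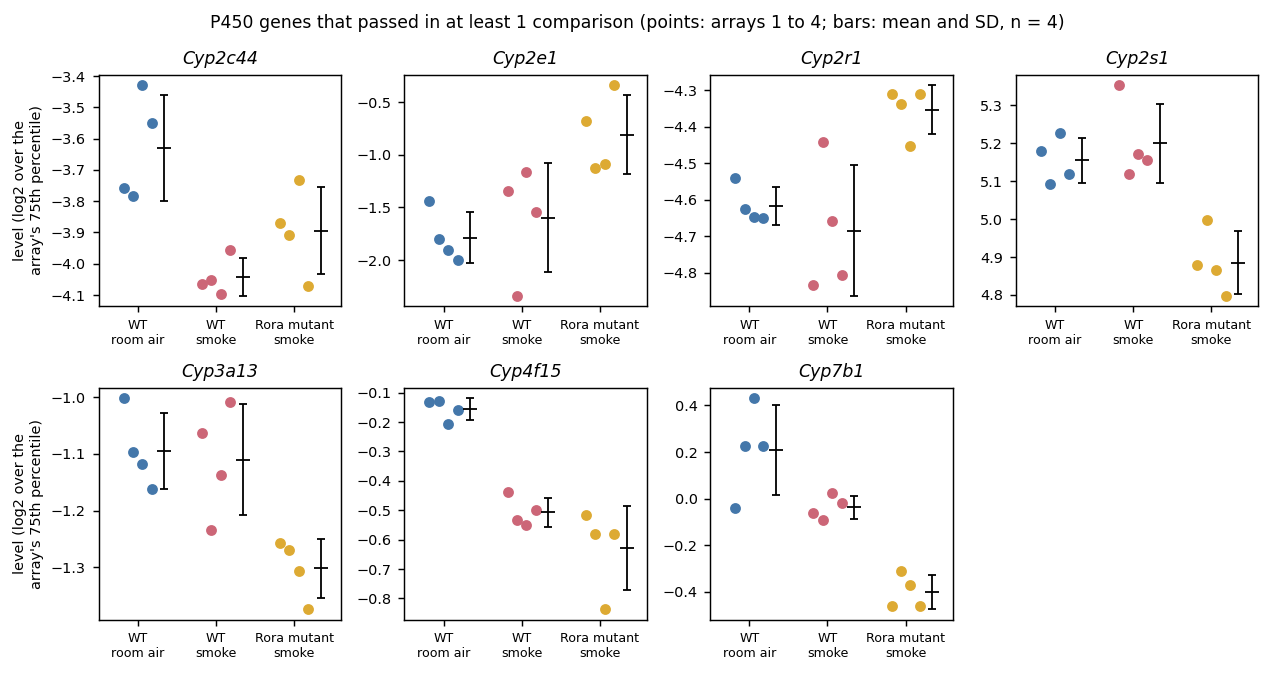
Level of the 7 P450 genes that passed in at least 1 comparison, as log2 ratio to the 75th percentile of the array, for WT room air (blue), WT smoke (red) and Rora mutant smoke (yellow). Points are single mice and bars the mean with SD (n = 4). Mutant points lie below all WT points for Cyp7b1, Cyp2s1 and Cyp3a13 and above them for Cyp2e1, and all smoke points lie below room air for Cyp4f15.

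Cyp2a5, which oxidises coumarin and nicotine, and its near copy Cyp2a4, a steroid hydroxylase, varied more between mice than most members. Their sequences are nearly identical, so their probes may read both. Cyp2a5 lay at 4.74, 5.65, 4.84 and 4.86 in room air, 5.86, 5.14, 5.74 and 5.22 in WT smoke, and 4.99, 4.83, 4.98 and 4.81 in mutants. Room-air replicate 2 stood as high as the WT smoke mice, and all mutants lay below all WT smoke mice. WT smoke was 0.47 ± 0.21 (SE) above room air (adjusted p = 0.255) and mutants 0.58 ± 0.21 below WT smoke (adjusted p = 0.126), and neither difference passed. Cyp2a4 gave 0.47 ± 0.23 and -0.61 ± 0.23 (adjusted p = 0.304 and 0.146), and the second probe of each gene gave changes of the same sign in both comparisons. Within slides 1 to 3 the Cyp2a5 difference between WT smoke and room air was 1.06, -0.47 and 0.90, so its sign turned on slide 2, which held room-air replicate 2.

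The Cyp2b genes did not pass between the genotypes. Cyp2b9 and Cyp2b10, reported as RORα-dependent in mouse liver, oxidise drugs and steroids. Cyp2b10 lay at 2.18 to 2.49 in room air, 2.39 to 2.43 in WT smoke and 2.35 to 2.55 in mutants, with a genotype difference of 0.01 ± 0.07 SE (interval -0.15 to 0.16). Cyp2b9 lay at 3.23 to 3.49, 3.45 to 3.56 and 3.44 to 3.63, with a difference of 0.01 ± 0.07 (interval -0.13 to 0.16). The second kept probe of Cyp2b9 gave -0.08 for the same difference. Cyp2b13 and the dimmer Cyp2b19 had genotype differences of -0.02 ± 0.09 and 0.03 ± 0.17. A second, much dimmer kept probe of Cyp2b13 gave -0.25 between the genotypes and -0.34 from room air to mutant smoke, and neither passed. Which Cyp2b genes each probe reads was not tested. Cyp4a10, from the same reported list, differed by -0.03 ± 0.10 (interval -0.25 to 0.18). Of the 6 listed RORα targets, Cyp8b1 was well above background on 0 arrays and Cyp4a14 on 1, so 4 were tested. Cyp7b1 was the 1 of these 4 that passed between the genotypes, where 6.04% of all genes passed. It was also the 1 that passed from room air to mutant smoke, where 16.7% did.

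Probes of 7 members lie within 1041 kb of chromosome 7 (25511245-26551969, mm8), in the order Cyp2s1, Cyp2b10, Cyp2b13, Cyp2b9, Cyp2a4, Cyp2b19 and Cyp2a5. Position did not go with direction there: Cyp2s1 passed lower in the mutants, its neighbour Cyp2b10 differed by 0.01, and the Cyp2a pair, with -0.61 and -0.58, did not pass. RefSeq start sites (GRCm38.p6) could be matched for 32 of the 40 members. Cyp7b1, Cyp2c44, Cyp4a10, Cyp4a12, Cyp17a1, Cyp2u1, Cyp2d22 and Cyp39a1 were not matched and were not searched. The 250 bases before the start of 3 of them are shown because they set the gene that fell in the mutants beside neighbours that did not, with AGGTCA on the given strand in capitals. Cyp2s1 is at chr7:25816526-25816775 (minus strand), Cyp2b9 at chr7:26173159-26173408 and Cyp2b13 at chr7:26061245-26061494 (both plus strand).
Cyp2s1: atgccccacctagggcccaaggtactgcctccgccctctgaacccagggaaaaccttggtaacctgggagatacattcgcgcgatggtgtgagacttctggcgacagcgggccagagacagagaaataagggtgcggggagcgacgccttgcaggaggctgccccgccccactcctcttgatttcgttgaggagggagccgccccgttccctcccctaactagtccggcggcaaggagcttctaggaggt
Cyp2b9: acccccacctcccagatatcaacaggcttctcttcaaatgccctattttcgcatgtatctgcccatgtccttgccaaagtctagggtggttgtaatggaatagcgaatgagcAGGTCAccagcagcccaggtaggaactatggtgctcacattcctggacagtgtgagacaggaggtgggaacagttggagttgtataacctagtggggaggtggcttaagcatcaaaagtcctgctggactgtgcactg
Cyp2b13: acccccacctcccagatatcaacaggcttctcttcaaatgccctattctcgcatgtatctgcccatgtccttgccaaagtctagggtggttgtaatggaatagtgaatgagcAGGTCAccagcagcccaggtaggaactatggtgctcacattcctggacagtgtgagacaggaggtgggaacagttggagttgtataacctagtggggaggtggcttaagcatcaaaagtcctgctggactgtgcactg
AGGTCA or its reverse complement was in the window of 5 of the 32 members (15.6%): Cyp2b9, Cyp2b13, Cyp2b19, Cyp2c70 and Cyp3a11. It was in 14.0% of all 32851 windows of this length. None of these 5 members passed in any comparison, and the window of Cyp2s1 holds no match. In Cyp2b9 and Cyp2b13 the match begins 138 bases before the start, and their windows differ at 2 of 250 bases, so they are close copies like the genes themselves. The core GCGTG of aryl hydrocarbon receptor sites was in 7 of 32 members (21.9%) against 28.2% of all windows, either strand counted. The antioxidant response core TGACNNNGC was in 1 (Cyp4f18, 3.12%) against 10.2%. A match is a stretch of letters and no measured binding site.

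The remaining CYP2 genes gave no call on their main probes. The 4 Cyp2d genes, the debrisoquine-type hydroxylases, lie within 415 kb of chromosome 15, and the largest of their changes was that of Cyp2d9 from room air to mutant smoke (0.22 ± 0.09 SE, adjusted p = 0.108). Cyp2d22 has 3 kept probes that differ in sign in WT smoke against room air, at -0.09, 0.07 and 0.19, and 1 of them passed from room air to mutant smoke when probes were tested singly (0.30, adjusted p = 0.0480). Cyp2c37, Cyp2c55 and Cyp2c70, drug and fatty acid hydroxylases, had group means between -5.69 and -3.83 and overlapping groups. Some of these genes are known in mouse liver for differing between the sexes: Cyp2a4 and Cyp2b9 are higher in females there, and Cyp2d9 and Cyp4a12 in males. In these lungs Cyp2a4 differed by 0.47 ± 0.23 (SE), Cyp2b9 by 0.12 ± 0.07, Cyp2d9 by 0.07 ± 0.09 and Cyp4a12 by -0.22 ± 0.20 between WT smoke and room air, the arrays that also differed in Xist, and none of the 4 passed. These 4 were picked after their values were seen and are not a full list of such genes. The part of sex in any change was not tested.

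In the CYP3 family, Cyp3a13, the main Cyp3a gene of mouse gut, was lower in mutant smoke than in room air. Its levels were -1.0, -1.10, -1.12 and -1.16 in room air, -1.06, -1.23, -1.14 and -1.01 in WT smoke, and -1.26, -1.27, -1.31 and -1.37 in mutants. All mutants lay below all WT arrays, by a small step. The change from room air was 1.15-fold (-0.21 ± 0.06 SE, adjusted p = 0.0358), and that from WT smoke did not pass (-0.19 ± 0.06, adjusted p = 0.0868). Within slides the difference from room air was -0.18, -0.17 and -0.22, but its call ended in 14 of 23 alternatives, with slide as a block among them (adjusted p = 0.0745). Cyp3a11, the major drug-oxidising Cyp3a of mouse liver, ranged from -3.93 to -3.38 and did not pass. Cyp20a1, a P450 of unknown substrate, split within groups: 2 of 4 room-air mice (-0.92 and -0.78), 1 WT smoke mouse (-0.87) and 1 mutant (-0.81) lay apart from the other 8, which ran from -0.46 to -0.15.

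**Figure D4:**
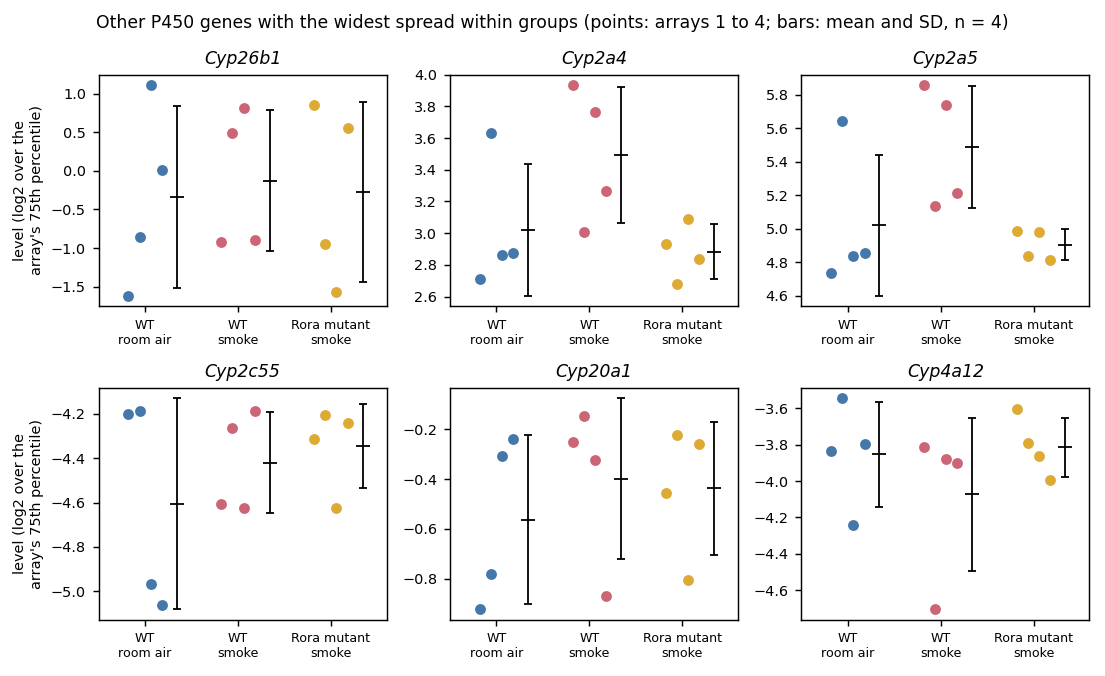
Level by mouse of 6 P450 genes with wide spread within groups and no call, on the same axes and colours as the plot of called genes (mean and SD, n = 4). Cyp26b1 spans -1.62 to 1.11 with all groups overlapping, Cyp20a1 has 4 low mice spread over the 3 groups, and room-air replicate 2 stands high for Cyp2a4 and Cyp2a5.

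The proteins that serve P450 enzymes were measured on the same arrays. Of 9 tested electron transfer partners, 0 passed in WT smoke against room air by limma, where 4.86% of all genes passed. At an unadjusted p under 0.05 there were 2, beside 3633 of all 19824 genes. Por alone passed between the genotypes, where 6.04% of all genes passed. Por, the reductase that feeds all microsomal P450 enzymes, lay at 5.89 ± 0.01 (SD, n = 4) in room air, 5.94 ± 0.05 in WT smoke and 5.70 ± 0.10 in mutants. It fell by 0.23 on the log2 scale in mutants against WT smoke (SE 0.06, adjusted p = 0.0345) and also passed against room air (-0.18 ± 0.06, adjusted p = 0.0448). Por is rich in club cells and is 1 of the 3 lower club cell markers above. Pgrmc1, a heme-binding partner of P450 enzymes, rose from room air to mutant smoke (0.23 ± 0.06, adjusted p = 0.0301), so this list held 1 higher and 1 lower gene there, where 16.7% of all genes passed.

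Hmox1 and Blvrb, genes of heme breakdown, rose with smoke. Of 13 tested heme genes, they were the 2 that passed in WT smoke, where 4.86% of all genes passed, with 0 lower: Hmox1, which opens the heme ring, by 0.89 ± 0.10 SE (adjusted p = 0.000835), and Blvrb, a biliverdin reductase, by 0.32 ± 0.07 (adjusted p = 0.0217). From room air to mutant smoke 4 were higher (16.7% of all genes passed), with Blvra (0.25 ± 0.04) and Cpox, a step of heme synthesis (0.30 ± 0.06), added to these. Between the genotypes 0 of 13 passed by limma, where 6.04% of all genes passed. At an unadjusted p under 0.05 there were 4, beside 4196 of all 19824 genes. Alas1, the rate-limiting step of heme synthesis, changed by 0.16 ± 0.08 in WT smoke without passing (adjusted p = 0.316).

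Of 18 receptors that control P450 genes, Pparg, the fat cell and macrophage receptor, rose in WT smoke (0.42 ± 0.07 SE, adjusted p = 0.00539). That was 1 of 18 (4.86% of all genes passed). Between the genotypes 0 were higher and 2 lower (6.04% of all genes passed). Nr1i2, the pregnane X receptor that drives Cyp3a and Cyp2b genes, went from -3.86 ± 0.22 (SD, n = 4) in room air to -4.24 ± 0.06 in WT smoke and -4.74 ± 0.21 in mutants, a genotype difference of -0.50 ± 0.12 SE (adjusted p = 0.0301). Rarb, a retinoic acid receptor, fell by 0.43 on the log2 scale (adjusted p = 0.0233). From room air to mutant smoke Ppara, which drives Cyp4a genes, was lower as well (-0.47 ± 0.10, adjusted p = 0.00997), so that 1 receptor was higher and 3 were lower, where 16.7% of all genes passed. Of the detected Cyp3a, Cyp2b and Cyp4a genes, Cyp3a13 passed lower from room air to mutant smoke (-0.21 ± 0.06, adjusted p = 0.0358). That call ended in 14 of 23 alternatives. Cyp3a11, the 4 Cyp2b genes, Cyp4a10 and Cyp4a12 did not pass in any comparison. Cyp4a10 changed by -0.22 ± 0.10 from room air to mutant smoke (limma adjusted p = 0.159). The part of the receptors in these values was not tested.

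Of 4 epoxide hydrolases, which open the epoxides that P450 enzymes make, 1 was higher and 0 lower in WT smoke (4.86% of all genes passed), and 1 was higher and 1 lower between the genotypes (6.04%). Ephx1, the microsomal enzyme for xenobiotic epoxides, lay at 2.87 ± 0.08 (SD, n = 4) in room air, 3.14 ± 0.04 in WT smoke and 2.91 ± 0.07 in mutants. It rose in WT smoke (0.27 ± 0.06 SE, adjusted p = 0.0175) and was lower in mutants than in WT smoke (-0.23 ± 0.06, adjusted p = 0.0328). Ephx2, the soluble enzyme for fatty acid epoxides, was higher in mutants than in WT smoke (0.41 ± 0.10, adjusted p = 0.0400). From room air to mutant smoke 1 of the 4 was higher (Ephx2) and 2 were lower, Ephx3 and Ephx4 (-0.54 ± 0.12 and -0.67 ± 0.13), where 16.7% of all genes passed. Of the epoxygenases that make their substrates, Cyp2j6, Cyp2j9, Cyp2j13 and Cyp2u1 did not pass in any comparison, and Cyp2c44 passed lower in WT smoke, as given above.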

How the data were processed

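The authors scanned single-colour Cy3 arrays with Agilent Feature Extraction 9.5.3.1, per the submitters' processing notes. The deposited processed signal is a linear intensity after background subtraction within each array, per the file headers, and the spot mean and background are uncorrected intensities. The authors' value table holds log2 intensity with a common median of 6.80 (lowest correlation with the processed signal 0.99953); its method is not given in the sources used here. The deposited outlier and detection flags are other values of 0 or 1.

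From these, 43379 spots were averaged to 41174 probes, leaving out outlier-flagged spots. Each value is the log2 of the ratio of processed signal to the 75th percentile of its array. Probes well above background on at least 4 of 12 arrays, with values on at least 3 arrays per group, were kept (30191). The brightest kept probe stood for each of 19824 genes, and symbols were updated through RefSeq. A mean per group was fitted on all 12 arrays with limma 3.58.1 in R 4.3.3, two-sided, with Benjamini-Hochberg adjustment over all genes; plots used matplotlib 3.10.9 in Python 3.11.15. Intervals are 95% from the same fit. The number of arrays limits the precision. In simulated data on 19736 genes for WT smoke against room air, 50 genes were given each size of change and the rest none. The fit recovered 26% of changes of 0.3, 56% of 0.5, 90% of 0.75 and 78% of 1 (log2). With 50 genes per size these shares are rough. In the data 963 genes passed in this comparison, so the adjusted cutoff differed and the shares are not the power of the study.

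The 3 slides were scanned separately, and each held 4 arrays with all 3 groups, so within-slide values rest on 1 or 2 mice a group. Replicate numbers did not pair the arrays (deviation correlations from -0.0968 to 0.2239; 4 of 12 pairs over 0.1). The rule for named genes took those that passed, the 3 smallest p-values of each role group and the reported RORα targets (21 of 40); the other 19 were named after their values were seen, to account for every member. The members, lists and tests were chosen with earlier results of these data known. Alternatives were the background correction, normalization, authors' table, dim-probe filter, probe choice, variance model, slide and replicate blocks, arrays of 2 groups, and leaving out each array. Promoter windows are RefSeq's (GRCm38.p6); probe sequences were not used here.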

Additional observations from a re-analysis of the deposited data

Results flagged for a closer look

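Among the 120 sets of 4 arrays formed by the 40 P450 genes in 3 groups, 3 held an array whose gap to the nearest other was above Dixon's 95% critical share of the group's range. Chance flags about 1 in 20 such sets. Cyp2a5 in WT room air replicate 2 stood at 5.65, with the other room-air arrays at 4.74 to 4.86. Cyp4a12, a fatty acid hydroxylase, stood at -4.70 in WT smoke replicate 2, with the others at -3.90 to -3.81. Cyp4b1 stood at 6.32 in Rora mutant smoke replicate 4, with the others at 6.07 to 6.10. The 3 arrays were different ones.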

How the results depend on the processing

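Of the 11 calls on 7 P450 genes, 0 changed sign in any of 23 alternatives, and 1, Cyp7b1 from room air to mutant smoke, held in all of them. Counts are given as higher and lower. The normexp background correction left 0 and 0 in WT smoke against room air, 0 and 0 between the genotypes, and 0 and 1 from room air to mutant smoke. Without the filter on dim probes the counts were 0 and 1, 0 and 1, and 1 and 3. With slide as a block they were 0 and 1, 0 and 2, and 1 and 3. On the arrays of only the 2 groups compared the genotype counts were 0 and 1. With trended and robust variance 0 were higher between the genotypes and 1 from room air to mutant smoke. Testing every kept probe singly gave 3 higher from room air to mutant smoke. The replicate block gave 0 and 2 in WT smoke against room air, 0 and 2 between the genotypes and 1 and 3 from room air to mutant smoke; it ended the calls of Cyp2r1 (adjusted p = 0.0594 and 0.0722) and Cyp3a13 (0.0596) and no other. Leaving out 1 array at a time gave 1 to 3 lower and 0 higher in WT smoke against room air, 0 to 1 higher and 0 to 2 lower between the genotypes, and 0 to 2 higher and 3 to 4 lower from room air to mutant smoke. The causes were not tested.

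Signs turned only for changes that had not passed. Under normexp these were Cyp26a1 in WT smoke (-0.30), Cyp27a1 (0.091), Cyp2b10 (-0.10), Cyp2b9 (-0.10) and Cyp4a10 (0.32) between the genotypes, and Cyp2c44 (0.0782) and Cyp4a10 (0.0571) from room air to mutant smoke. Between the genotypes the authors' table gave -0.0004 for Cyp2b10, -0.0038 for Cyp2b9 and 0.0040 for Cyp4a10. Quantile normalization gave -0.0006 for Cyp2b9 and 0.0057 for Cyp4a10, the slide block -0.0101 for Cyp2b10, and the mean of all probes and single probes -0.0331 and -0.0785 for Cyp2b9. Leaving out 1 array moved Cyp2b10 from -0.0378 to 0.0297, Cyp2b9 from -0.0236 to 0.0426 and Cyp4a10 from -0.115 to 0.0396. Of 41 further changes of named genes, 22 turned sign in at least 1 alternative and 0 passed in any. Cyp26a1 is the gene most limited by signal over background.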

Other observations

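Several P450 genes lie outside the name pattern, and they were looked at after the values were known. Some are listed on the array under clone or other names, while the symbols Cyp51, Tbxas1 and Ptgis do not have the form of the pattern. Cyp4f39, an omega-hydroxylase of very long fatty acids in skin, is listed under a clone name. Its levels were -2.88, -2.77, -3.18 and -3.10 in WT room air, -2.07, -2.08, -2.02 and -2.08 in WT smoke, and -2.26, -2.26, -2.29 and -2.12 in Rora mutant smoke. All smoke-exposed mice lay above all room-air mice. The rise in WT smoke was 0.92 ± 0.08 (SE, limma adjusted p = 9.6e-05) and that in mutant smoke 0.75 ± 0.08 (adjusted p = 0.000208), larger than any change of the 40 genes in WT smoke. Its relative Cyp4f15, 1 of the 40, fell by 0.35 on the log2 scale in the same comparison.

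Cyp51, the sterol demethylase of cholesterol synthesis, was lower in both smoke groups than in room air. It lay at -1.70 ± 0.07 (SD, n = 4) in room air, -2.05 ± 0.04 in WT smoke and -2.10 ± 0.11 in mutants, a change of -0.35 ± 0.06 (SE, adjusted p = 0.00727) in WT smoke. Its other 2 probes gave -0.32 and -0.48. Cyp2d12, also under a clone name, rose in WT smoke by 0.31 ± 0.08 (adjusted p = 0.0486). With every kept probe tested singly this rise no longer passed (limma adjusted p = 0.0551). Cyp4a31 and Cyp4f41-ps, listed under other names, did not pass in any comparison. Tbxas1, the thromboxane synthase, was higher in mutant smoke than in room air (0.41 ± 0.08, adjusted p = 0.00432) and did not pass between the genotypes (adjusted p = 0.127). Ptgis, the prostacyclin synthase, changed by 0.09 ± 0.06 in WT smoke without passing (adjusted p = 0.491). In all comparisons with room air the difference in sex-linked RNA applies here too.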
